A study of Homo sapiens with 24 samples.

Results

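The response to butyrate of cells that carried an induced dominant negative Tcf4 was read from 12 of the 24 arrays of the series: the 6 arrays of cells treated with doxycycline and butyrate (DoxyNaB) against the 6 arrays of cells treated with doxycycline alone (Doxy), compared within each of 6 experiments. The cells were HCT-116, a human colorectal carcinoma line, as 1 clone that stably carried the Tet repressor and a doxycycline-inducible, FLAG-tagged dominant negative Tcf4 (DN-Tcf4), in all groups. DoxyNaB cells received 4 μg/ml doxycycline and 5 mM sodium butyrate for 17.5 hr, and Doxy cells received 4 μg/ml doxycycline without butyrate. The 12 arrays of the cells without doxycycline, untreated (Ctl) or with 5 mM butyrate (NaB), entered the same statistical fit and are used below to show where the response differed without doxycycline. By the study's own account DN-Tcf4 protein was abundant only after both agents, so the comparison joins the action of butyrate with that of the repressor. In bulk RNA of a cell population, fewer cells of a kind and less RNA per cell cannot be told apart.

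Butyrate is a short-chain fatty acid made in the colon by fermentation of dietary fiber. It is used by colonocytes as fuel and it inhibits histone deacetylases, the enzymes that remove acetyl groups from histones and other proteins. In colorectal cancer cells it is known to arrest growth, to raise Wnt transcriptional activity and to cause differentiation or apoptosis. Tcf4, the product of TCF7L2, carries beta-catenin to the promoters of Wnt target genes. The dominant negative form still binds DNA but cannot bring beta-catenin with it.

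A large share of the measured transcripts differed between DoxyNaB and Doxy cells. Of 18983 probes tested, 5805 (30.6%) changed by over 2-fold at an adjusted p under 0.01 (limma with Benjamini-Hochberg adjustment over all probes), of which 3478 (18.3%) rose and 2327 (12.3%) fell. Genes of cell division, DNA synthesis, ribosome assembly and RNA splicing were among those that fell. Histone genes, metallothioneins, lysosomal genes, cholesterol synthesis genes and genes usually restricted to neurons or germ cells were among those that rose. With each gene given by its probe of highest mean level, 2835 of 15158 genes (18.7%) rose and 1890 (12.5%) fell, and these shares are the background for the counts below. Levels are log2 processed signals set against the 75th percentile of all spots of the array (taken as 0), so a change of 1 is 2-fold and levels of different probes are not compared. All 6 DoxyNaB arrays lay outside the range of the 6 Doxy arrays for 7868 probes (41.4%), whatever the size of the change. The median fold was 2.97 among the probes that rose and 2.76 among those that fell, and 41 rose but 2 fell by more than 32-fold.

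The balance of rises and falls depended on how the arrays were scaled to each other. Among the called probes 59.9% were higher with the 75th percentile of spots, 67.6% with that percentile over probes well above background on all arrays, 59.3% after normexp background correction and 53.9% with the percentile over averaged probes. It was 46.7% after quantile normalization and 25% with scaling to the median. The median log2 change over all tested probes moved with these scalings, from 0.10 as reported. It was 0.21 with normexp, it turned to -0.07 after quantile normalization, and it was -0.46 when arrays were set to their median. With scaling to the median more genes fell than rose in 20 lists in which more rose as reported below, among them 7 against 2 glycolysis genes, 12 against 8 interferon-stimulated genes, 11 against 7 integrins, laminins and collagens, 6 against 4 epithelial-mesenchymal genes, 9 against 5 BMP and TGF-beta genes, 8 against 5 ERK feedback genes and 10 against 8 ABC transporters, 6 against 2 fatty acid oxidation genes and 80 against 14 solute carriers. The medians of gene groups are therefore given below relative to the median of all genes tested, which was 0.11.

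The arrays differed in brightness and 1 stood apart. Between 80.3% and 86.6% of spots were well above background on the arrays of experiments 2 to 4, and between 57.8% and 62.6% on those of the other experiments. The negative controls had a net signal of 249 on the DoxyNaB array of experiment 2, against 51.2 to 111 on the other DoxyNaB arrays and 49.5 to 79.6 on the Doxy arrays. Among the 1556 probes well above background on none of the 24 arrays, the median level was 2.11 higher in DoxyNaB than in Doxy in experiment 2 and between -0.07 and 1.15 higher in the others. Without that array 5791 probes were called. In experiment 1 the DoxyNaB and Doxy arrays were on separate slides and scans, so there the agent and the slide cannot be told apart, and 5712 probes were called without this experiment. Of 8 markers of the line, EPCAM, CDH1, KRT8, KRT18, KRT19 and CDX2 were well above background on all 12 arrays, while VIL1 and LGALS4 were not. Of 16 markers of leukocytes, fibroblasts, endothelial cells and red cells with a probe, 3 were well above background on all 12 arrays. The mean log2 level of the 16 was between -5.79 and -4.48 on the Doxy arrays and between -5.02 and -2.49 on the DoxyNaB arrays.

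TCF7L2, the gene from which DN-Tcf4 derives, was read by 3 probes, and whether each of them lies in the transgene was not tested. Its brightest probe, on chromosome 10 of NCBI36 from 114901475 to 114901534, was between -3.59 and -1.503 on the Doxy arrays (median -2.64) and between 0.54 and 1.92 on the DoxyNaB arrays (median 1.49), a change of 4.04 ± 0.69 (adjusted p = 1.07e-08, limma) with no overlap. Another probe further along the gene, from 114915968 to 114916027, rose by 6.06 ± 1.44. The probe nearest the gene's start, from 114714311 to 114714370, fell by 1.70 on the log2 scale (SD 0.63, adjusted p = 8.08e-06, limma). Without doxycycline the brightest probe changed by 0.91, and the interaction was 3.13.

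The largest changes are given first for genes well above background on all 12 arrays. DHRS2, a short-chain dehydrogenase/reductase, rose most among genes measured on all 12 arrays. Its log2 level was between -1.42 and 0.10 on the Doxy arrays, with a median of -1.13, and between 5.86 and 6.73 on the DoxyNaB arrays, with a median of 6.20. The ranges do not overlap, and the change of 7.16 ± 0.54 (SD, n = 6 experiments, adjusted p = 1.34e-15, limma) is a 142-fold rise. The probe that read it sits at 23184340 to 23184400 on chromosome 14 (NCBI36). VGF, a precursor of neurosecretory peptides, was between 1.28 and 2.17 on the Doxy arrays (median 1.51) and between 6.41 and 7.14 on the DoxyNaB arrays (median 6.73), a change of 5.20 ± 0.38. CCN2, a matricellular growth factor, went from a range of -2.80 to -1.60 (median -2.36) to one of 2.78 to 3.14 (median 2.99), a change of 5.29 ± 0.40. The immediate early transcription factor gene FOS went from a range of -2.54 to -1.36 (median -1.55) to one of 2.62 to 3.73 (median 3.21), a change of 4.92 ± 0.39. In none of these genes did an array of one treatment reach the range of the other. The rest of the 12 highest were USP17L2 (a deubiquitinase of a family of near-identical copies), CEND1 (a neuronal cell cycle exit factor), PEG10 (a retrotransposon-derived imprinted gene), EFR3B, CYSRT1, SBSN, SSBP2 and the alpha globin HBA2, whose probe cannot be separated from the near-identical HBA1. Their log2 changes were between 4.68 and 5.75, with adjusted p between 4.4e-17 and 3.4e-13 (limma).

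PDE4B, a cyclic AMP phosphodiesterase, fell most among genes measured on all 12 arrays. Its log2 level was between 2.20 and 2.38 on the Doxy arrays (median 2.35) and between -2.94 and -2.40 on the DoxyNaB arrays (median -2.68), a change of -5.01 ± 0.29 (SD, n = 6, adjusted p = 2.88e-15, limma) with no overlap. HMGA2, an oncofetal architectural chromatin protein, went from a range of 2.37 to 2.97 (median 2.82) to one of -2.48 to -1.20 (median -2.26), a change of -4.82 ± 0.52, and 1 of its 3 probes was not called. EREG, a ligand of the EGF receptor, went from a range of 2.83 to 3.56 (median 3.32) to one of -1.11 to -0.37 (median -0.59), a change of -3.90 ± 0.37. All 3 were lower on every DoxyNaB array than on any Doxy array. The other genes of the 12 lowest were MALL, ITPRIPL2, the chloride channel ANO1, the histone variant MACROH2A2, ANXA3, EMP1, the neurotensin receptor NTSR1, TRIP6 and the lymphotoxin beta receptor LTBR, with log2 changes between -4.56 and -3.65.

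**Figure D1:**
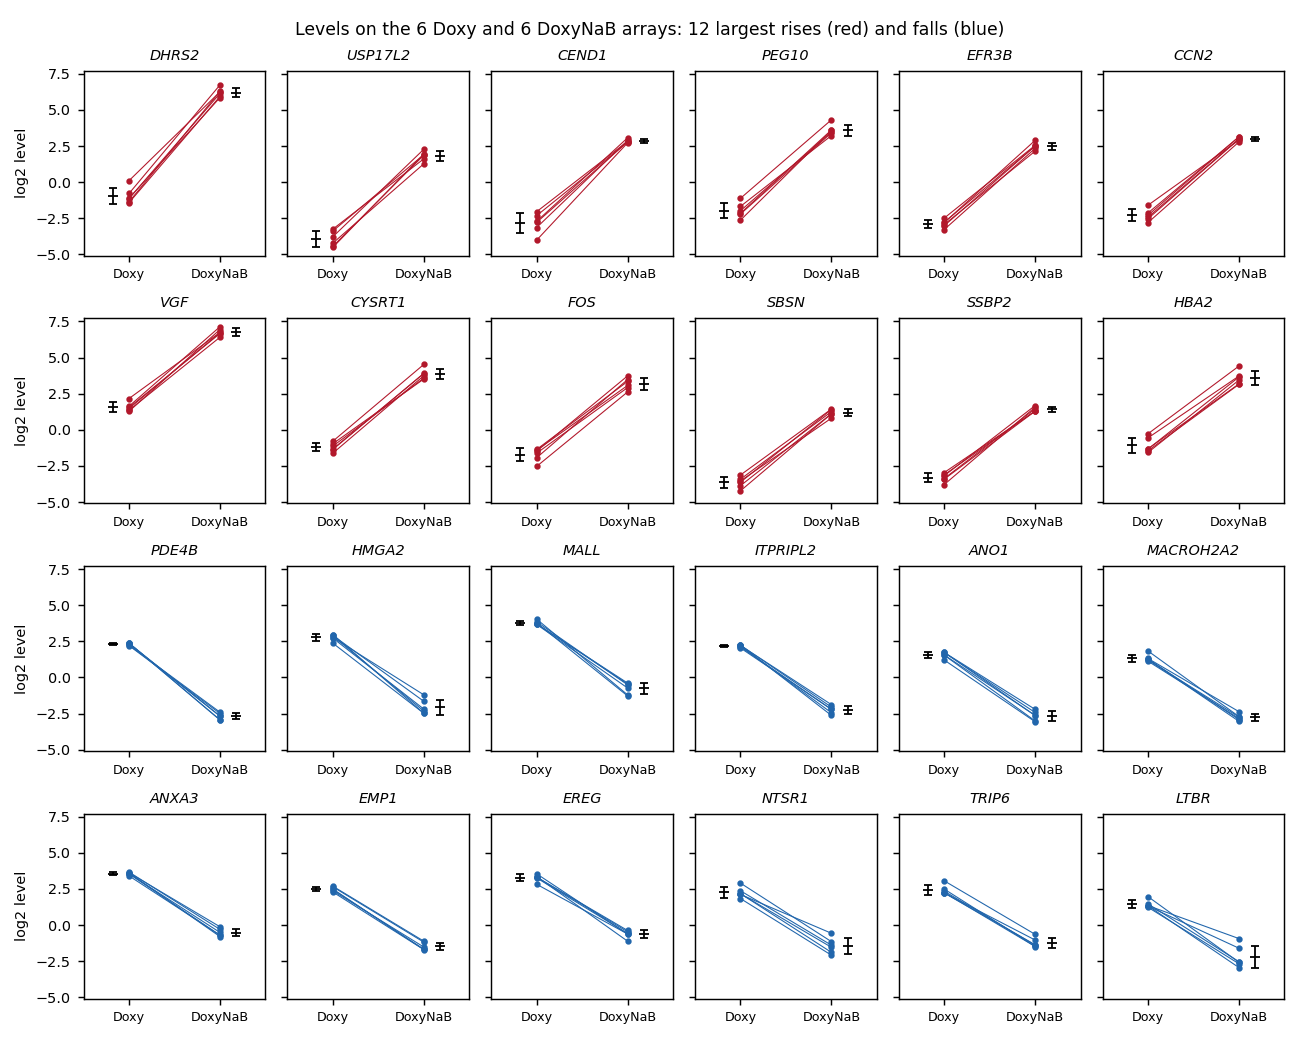
Log2 level (vertical axes, relative to the 75th percentile of each array) on the 6 Doxy and the 6 DoxyNaB arrays for the 12 genes with the largest rises (red) and the 12 with the largest falls (blue) among genes well above background on all 12 arrays; lines join arrays of the same experiment, and black marks give the mean and SD. In each of the 24 genes all 6 lines run the same way and the groups do not overlap, as for DHRS2 (median -1.13 to 6.20) and PDE4B (median 2.35 to -2.68).

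Some genes were measured on only 1 side, and their folds are given as bounds that hold for the scaling used. A bound sets the mean of the bright arrays against the dim arrays. Each dim array was put at the higher of its own signal and the lowest signal called well above background on it. That lowest signal is the minimum over all probes of the array, so a bound is no guaranteed minimum. CHGA, the secretory granule protein chromogranin A, was well above background on 0 of 6 Doxy arrays and 6 of 6 DoxyNaB arrays. Its bound was a 10.6-fold rise (adjusted p = 1.35e-11, limma). The bound was 10.3-fold for MMP10, a matrix metalloprotease, and 12.2-fold and 10.1-fold for the leukocyte receptors LILRB5 and LILRA2. In the other direction the bound was a 35.6-fold fall for ADGRF1, an adhesion G protein-coupled receptor. It was a 10.9-fold fall for SEMA3A, a secreted axon guidance protein (adjusted p = 9.73e-12, limma). The dimmer ADGRF1 probe changed by -3.08 ± 1.69 on the log2 scale, with 2 of 6 DoxyNaB arrays measured. After normexp the log2 changes were smaller than these bounds: CHGA 1.75, MMP10 1.75, LILRB5 2.07, LILRA2 1.62, ADGRF1 -2.58 and SEMA3A -1.48. Another 26 called genes named below were well above background on some, but not all, arrays of the dimmer treatment, and their log2 changes after normexp background correction were 0.0722 to 0.689 times those reported. The number of arrays is given where 3 or fewer of 6 were measured. In all, 38 probes rose from no Doxy array well above background and 28 fell to no DoxyNaB array well above background.

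Most cyclin, mitotic and replication genes tested fell. Of 27 cyclins, cyclin-dependent kinases and their direct regulators tested, 21 (77.8%) fell and 2 rose, and the median relative to that of all genes was -1.81. Of 65 genes of the mitotic spindle, kinetochore and condensin, 38 (58.5%) fell and 0 rose, and of 52 DNA replication genes 28 (53.8%) fell and 1 rose. CCND1, which encodes cyclin D1, had a log2 level between 3.02 and 3.40 on the Doxy arrays (median 3.22) and between -0.19 and 0.76 on the DoxyNaB arrays (median 0.20), a change of -3.02 ± 0.29 (SD, n = 6, adjusted p = 1.21e-14, limma) with no overlap. The repressor E2F8 changed by -3.17 ± 0.98 and the CDK-inhibiting kinase WEE1 by -3.16 ± 0.47, while CCND3 (1.63 ± 0.17) and the phosphatase gene CDC25B (1.07 ± 0.34, with the call lost under 6 alternatives) rose. Among spindle and kinetochore genes the largest falls were those of CENPM (-2.39 ± 0.34), the anaphase ubiquitin-conjugating enzyme UBE2C (-2.32 ± 0.35) and NDC80 (-2.16 ± 0.21). Among replication genes they were those of the polymerase subunit POLE2 (-2.42 ± 0.22), the licensing factor CDT1 (-2.09 ± 0.24) and the helicase subunit MCM2 (-1.98 ± 0.32), and the origin recognition subunit ORC4 rose by 1.06 ± 0.27, with the call lost under 5 alternatives. The relative medians of these 3 groups stayed between -1.84 and -1.08 under the 6 scalings, and in each of 6 experiments the group median was below 0.

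Called genes of nucleotide synthesis and DNA repair were lower with 1 exception, and most repair genes were not called. Of 33 nucleotide synthesis genes 19 (57.6%) fell and 1 rose, with TYMS, the thymidylate synthase and target of fluorouracil, at -2.88 ± 1.37 (-0.12 in experiment 4 and -3.82 to -3.09 in the others) and the mitochondrial folate enzyme MTHFD1L at -2.18 ± 0.10. Of 66 DNA repair genes 20 (30.3%) fell and 0 rose, among them the uracil glycosylase UNG (-2.79 ± 0.29). Among 10 CDK inhibitors and pocket proteins no common direction was seen. CDKN1C (3.28 ± 0.24), CDKN2D (1.66 ± 0.21) and CDKN2B (1.10 ± 0.93) rose. CDKN2B ran from -0.36 to 2.13 over the experiments, its groups overlap and its call was lost under 16 alternatives. CDKN2A (-2.19 ± 0.31) and CDKN1B (-1.26 ± 0.29) fell. CDKN1B stood at -0.92 after normexp and lost its call under 3 alternatives, and its other probe was not called (-0.53 ± 1.15). CDKN1A, named here after its values were seen because it is a known butyrate target, did not pass (0.68 ± 0.33).

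Promoters of genes that fell and rose in these groups are shown for the motifs searched in them, from 250 bases before the RefSeq start up to that start, as RefSeq gives them on GRCh38.p14, 5′ to 3′. The mitotic genes CENPA (-2.05) and PLK1 (-1.95) were printed for the largest falls among those whose window holds both a CHR element (TTTGAA or TTCGAA) and a CCAAT box (CCAAT), in capitals on either strand, so that a match to the other strand reads ATTGG.
CENPA (chr2:26785806-26786055, plus strand): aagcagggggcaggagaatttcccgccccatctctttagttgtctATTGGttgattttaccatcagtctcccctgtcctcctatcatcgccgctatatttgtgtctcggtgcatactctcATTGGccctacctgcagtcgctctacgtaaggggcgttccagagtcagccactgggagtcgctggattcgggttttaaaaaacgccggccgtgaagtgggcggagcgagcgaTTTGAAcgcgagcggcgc
PLK1 (chr16:23678639-23678888, plus strand): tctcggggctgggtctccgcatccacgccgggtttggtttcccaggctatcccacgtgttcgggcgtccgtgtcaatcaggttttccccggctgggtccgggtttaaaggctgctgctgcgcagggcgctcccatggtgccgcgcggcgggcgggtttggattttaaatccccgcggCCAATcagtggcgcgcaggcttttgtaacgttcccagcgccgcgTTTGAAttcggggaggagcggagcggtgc
The DNA replication genes CDT1 (-2.09) and MCM3 (-1.90) had the largest falls among the ranked genes with an E2F site (TTTCGCGC, TTTGGCGC, TTCCCGCC, TTCGCGCC, TTGCCGCC or TTGGCGCC), in capitals on either strand.
CDT1 (chr16:88803539-88803788, plus strand): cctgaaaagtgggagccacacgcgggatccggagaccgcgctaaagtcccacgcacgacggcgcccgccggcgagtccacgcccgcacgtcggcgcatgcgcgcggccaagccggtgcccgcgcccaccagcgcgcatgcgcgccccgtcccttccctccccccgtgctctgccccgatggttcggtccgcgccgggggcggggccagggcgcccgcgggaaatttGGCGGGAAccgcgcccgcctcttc
MCM3 (chr6:52284743-52284992, minus strand): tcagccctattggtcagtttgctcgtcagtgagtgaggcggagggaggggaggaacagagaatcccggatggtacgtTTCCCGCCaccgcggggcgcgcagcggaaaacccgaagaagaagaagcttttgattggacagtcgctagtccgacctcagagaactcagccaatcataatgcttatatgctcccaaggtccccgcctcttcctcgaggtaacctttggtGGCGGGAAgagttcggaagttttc
A promoter sequence was at hand for 10500 of the 15158 genes tested. A CHR element was found in 44.4% of 54 mitotic gene promoters, 2.27% of 44 replication gene promoters and 9.49% of all 10500. An E2F site was found in 36.4% of the replication gene promoters, 14.8% of the mitotic gene promoters and 9.14% of all. These are descriptions of letters in a window, and the TCF motif CTTTGAA contains the CHR motif TTTGAA.

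Chromatin genes went different ways. Of 66 histone genes tested, 42 (63.6%) rose and 6 fell, with a median 1.46 above that of all genes (1.08 to 1.55 under the 6 scalings). The 55 replication-coupled histone genes accounted for 39 of the rises and 4 of the falls, while of 11 variant genes 3 rose and 2 fell. All 15 H2B genes tested rose, as did 5 of 6 H1 genes, 10 of 19 H2A genes, 6 of 14 H3 genes and 6 of 12 H4 genes, where 4 fell. H2AC19 went from a mean of -1.09 ± 0.37 to 2.52 ± 0.37 (SD, n = 6 arrays), a change of 3.61 ± 0.23 (adjusted p = 7.88e-15, limma), the linker histone H1-2 changed by 3.03 ± 0.29 and H2AC7 by 3.00 ± 0.19. MACROH2A2 (-4.10 ± 0.30), H4C13 (-1.80 ± 0.28) and H4C3 (-1.74 ± 0.39) fell. Histone genes are near-identical copies, so a probe may read several of them, and probes of a gene can read different transcript ends. The brighter probe of H4C4 fell (-1.52 ± 0.19) and its other probe rose (3.02 ± 0.23).

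The promoters of H2AC19 and H2AC6 (2.44) had the largest rises among histone genes whose window holds both a TATA box (TATAAA) and a CCAAT box, in capitals on either strand.
H2AC19 (chr1:149850811-149851060, plus strand): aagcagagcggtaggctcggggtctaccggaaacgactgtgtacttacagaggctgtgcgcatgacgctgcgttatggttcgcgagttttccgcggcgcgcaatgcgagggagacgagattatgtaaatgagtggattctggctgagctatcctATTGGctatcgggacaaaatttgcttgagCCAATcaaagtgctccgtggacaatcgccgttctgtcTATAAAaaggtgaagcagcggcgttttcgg
H2AC6 (chr6:26123922-26124171, plus strand): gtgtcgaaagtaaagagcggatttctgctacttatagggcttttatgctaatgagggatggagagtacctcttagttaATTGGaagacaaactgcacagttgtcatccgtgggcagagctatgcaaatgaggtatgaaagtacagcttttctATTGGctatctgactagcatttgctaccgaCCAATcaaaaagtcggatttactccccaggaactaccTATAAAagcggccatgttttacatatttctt
A TATA box was found in 61.7% and a CCAAT box in 83.3% of 60 histone promoters, against 5.7% and 35.6% of all promoters. The TATA box was found in 9.1% of promoters of all genes that rose and 5.33% of those of genes that fell, and the CCAAT box in 42.0% and 30.3%. The GC box (GGGCGG) was found in 67.2% of the promoters of rising and 65.9% of those of falling genes, with a median G+C content of 65.2% in both. The window of DHRS2, the gene with the largest rise among those measured on all 12 arrays, holds a TATA box, in capitals, and no GC box.
DHRS2 (chr14:23629865-23630114, plus strand): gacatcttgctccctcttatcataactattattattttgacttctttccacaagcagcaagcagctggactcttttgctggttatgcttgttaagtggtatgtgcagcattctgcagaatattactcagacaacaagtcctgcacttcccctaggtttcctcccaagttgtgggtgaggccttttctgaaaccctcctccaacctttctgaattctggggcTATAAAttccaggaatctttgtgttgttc

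Among 46 histone deacetylases, acetyltransferases and co-repressors, 7 rose and 7 fell. The sirtuins SIRT4 (2.85 ± 0.31) and SIRT2 (1.76 ± 0.28) and the deacetylase HDAC10 (1.65 ± 0.59) had the largest rises, and the NuRD subunits MTA3 (-1.97 ± 0.43) and MTA1 (-1.57 ± 0.22) and the deacetylase HDAC7 (-1.47 ± 1.35) the largest falls. HDAC7 ran from -2.74 to 0.73 over the experiments, its groups overlap, it stood at -0.51 after normexp and it lost its call under 15 alternatives. Of 32 Polycomb and DNA methylation genes 9 fell and 2 rose. PHF19 (-2.76 ± 0.69) and UHRF1 (-2.54 ± 0.32), which guides DNA methylation to newly made strands, fell most, and MBD1 rose by 1.76 ± 0.21. A dimmer MBD1 probe was not called (0.85 ± 0.52).

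All called genes of ribosome biogenesis and splicing were lower, though most members of both lists were not called, and few genes of the structural ribosome and the respiratory chain were called at all. Of 69 ribosome biogenesis genes 27 (39.1%) fell and 0 rose, with a relative median of -0.96. UBTF, an RNA polymerase I factor, changed by -2.33 ± 0.24 (adjusted p = 2.61e-12, limma), NIP7 by -1.92 ± 0.21 and WDR12 by -1.82 ± 0.18. Of 94 splicing genes 30 (31.9%) fell and 0 rose, led by SRSF8 (-2.10 ± 0.27), HNRNPD (-2.03 ± 0.21) and HNRNPH3 (-1.86 ± 0.18). The dimmer HNRNPD probe was not called (-1.04 ± 1.25). Of 77 mitochondrial ribosomal protein genes 14 (18.2%) fell and 0 rose, and of 37 aminoacyl-tRNA synthetases 6 fell and 0 rose. Of 85 cytosolic ribosomal protein genes 2 fell and 1 rose, the latter RPL3L, a muscle paralog, by 6.31 ± 0.55. Of 79 oxidative phosphorylation genes 2 fell and 0 rose, and of 47 proteasome genes 3 fell and 2 rose, namely the immunoproteasome subunits PSMB8 (2.16 ± 0.79) and PSMB9 (1.98 ± 0.37). Scaling to the median raised the falls to 49 ribosome biogenesis genes, 63 splicing genes, 44 mitochondrial ribosomal protein genes and 20 oxidative phosphorylation genes. With that scaling the median of all probes was at -0.46.

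**Figure D2:**
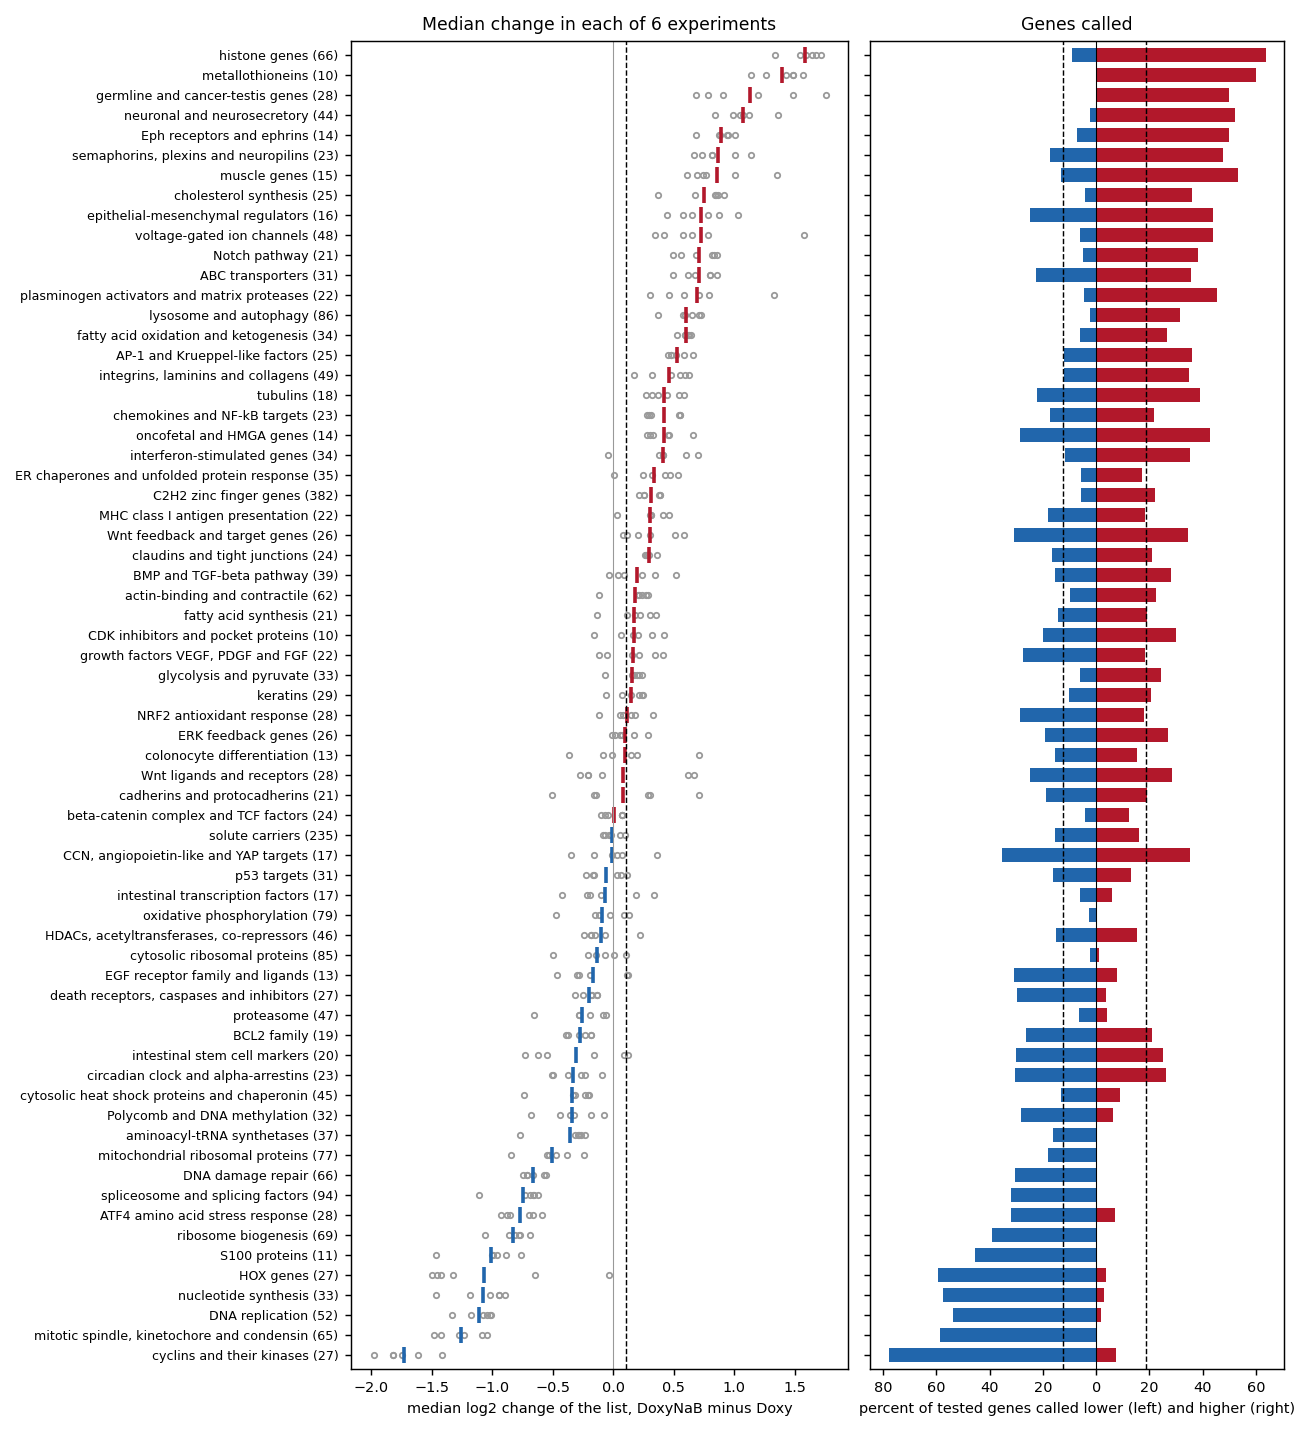
Gene groups with at least 10 genes tested (number in brackets), ordered by their mean. Left, the median log2 change of each group in each of the 6 experiments (open circles) and the mean of the 6 (bar), with the mean for all genes as a dashed line; right, the percent of tested genes called lower (blue) and higher (red), with dashed lines at the 12.5% and 18.7% of all genes. Cyclins and their kinases lie at the bottom, with 77.8% lower, and histone genes at the top, with 63.6% higher.

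Metabolic and lysosomal genes rose in part. Of 86 lysosome and autophagy genes 27 (31.4%) rose and 2 fell, with the sialidase NEU1 at 3.59 ± 0.24 (adjusted p = 1.79e-15, limma) and the sphingomyelinase SMPD1 at 2.85 ± 0.27. The relative median was 0.48 and lay between 0.32 and 0.66 under the 6 scalings, with 14 to 30 genes called higher. Of 10 metallothionein genes, which encode metal-binding proteins and are near-identical in sequence, 6 rose and 0 fell, with MT2A at 1.78 ± 0.34. Of 25 cholesterol synthesis genes 9 (36.0%) rose and 1 fell. HMGCS1, the synthase ahead of the rate-limiting reductase, went from 0.37 ± 0.20 to 3.18 ± 0.22 (SD, n = 6 arrays), a change of 2.81 ± 0.36. INSIG1, the sterol-sensing retention factor, rose by 1.87 ± 0.32 and TM7SF2 by 2.01 ± 0.20. The HMGCS1 promoter is shown with its CCAAT box matches in capitals, a motif found in 83.3% of 18 cholesterol gene promoters.
HMGCS1 (chr5:43313413-43313662, minus strand): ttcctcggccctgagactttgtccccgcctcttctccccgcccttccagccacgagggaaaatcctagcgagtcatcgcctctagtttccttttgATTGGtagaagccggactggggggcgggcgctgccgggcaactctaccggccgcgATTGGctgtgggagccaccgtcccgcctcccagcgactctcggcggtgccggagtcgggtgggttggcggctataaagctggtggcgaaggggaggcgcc
Of 34 genes of fatty acid oxidation and ketone metabolism, the route by which colonocytes burn butyrate, 9 (26.5%) rose and 2 fell. The short branched-chain dehydrogenase ACADSB (1.97 ± 0.20), the acyl-CoA synthetase ACSL1 (1.67 ± 0.17) and ETFDH (1.56 ± 0.12) rose most, and the ketone body enzymes BDH1 (-1.41 ± 0.48) and OXCT1 (-1.03 ± 0.19, with the call lost under 6 alternatives) fell. Over the 6 scalings 2 to 11 genes of this group were called higher, the fewest with scaling to the median, where 6 fell. Of 33 glycolysis genes 8 rose, with the brain aldolase ALDOC at 3.09 ± 0.21, and 2 fell, the glucose transporter SLC2A1 (-1.24 ± 0.21) and PGAM1 (-1.29 ± 0.22).

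Stress and survival genes changed in both directions, with the ATF4 targets mostly on the lower side. Of 28 ATF4 target genes of amino acid stress 9 (32.1%) fell and 2 rose, with a relative median of -0.88 (-0.92 to -0.53 under the 6 scalings) and a median below 0 in 6 of 6 experiments. The cystine transporter SLC7A11 fell by 4.02 on the log2 scale (SD 0.37), TRIB3 changed by -2.46 ± 0.19 and the serine synthesis enzyme PSAT1 by -1.88 ± 0.29, while the stress factors DDIT3 (2.26 ± 0.20) and ATF3 (2.12 ± 0.24) rose. Of 28 NRF2 targets 8 fell and 5 rose. The aldo-keto reductases AKR1C3 (4.74 ± 0.51) and AKR1C1 (3.30 ± 0.85, 3 of 6 Doxy arrays measured) rose and the efflux pumps ABCC2 (-3.24 ± 0.38) and ABCC3 (-2.56 ± 0.64) fell. Of 45 cytosolic heat shock and chaperonin genes 6 fell and 4 rose, with HSPH1 at -1.87 ± 0.21 and DNAJB1 at 2.20 ± 0.38. Of 19 BCL2 family genes 5 fell and 4 rose. The pro-apoptotic BMF (3.18 ± 0.96) rose and BID (-2.68 ± 0.25) fell, and so did the survival gene BCL2L1 (-2.07 ± 0.18). Of 27 death receptors, caspases and inhibitors 8 (29.6%) fell and 1 rose, among them FAS (-2.47 ± 0.38). The caspase-8 inhibitor CFLAR (-3.08 ± 0.83) and TNFRSF1A (-2.53 ± 0.58) fell with 3 of 6 DoxyNaB arrays measured, and after normexp they stood at -1.08 and -0.78, the latter not called, while CASP9 rose by 1.42 ± 0.07.

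Immediate early and inflammatory regulators split within their families. Of 25 AP-1 and Krueppel-like factors 9 (36.0%) rose and 3 fell. Besides FOS, the AP-1 subunits JUN (3.37 ± 0.50) and FOSB (2.87 ± 0.66) rose, while FOSL1 (-3.19 ± 0.17) and JDP2 (-3.04 ± 0.27) fell. Of 26 ERK feedback genes 7 rose and 5 fell, with EGR2 (3.54 ± 0.49), DUSP1 (2.83 ± 0.40) and EGR1 (2.46 ± 0.26) up and ETV4 (-1.69 ± 0.29) down. Of 13 genes of the EGF receptor family and its ligands 4 fell, among them EREG and EGFR (-1.86 ± 0.30, but -0.45 and not called after normexp), and 1 rose, the inhibitor LRIG1 (1.82 ± 0.08). Of 34 interferon-stimulated genes 12 (35.3%) rose and 4 fell. IRF7, the regulator of interferon genes, went from -1.07 ± 0.38 to 2.92 ± 0.23 (SD, n = 6 arrays), a change of 3.98 ± 0.25, DHX58 rose by 3.67 ± 0.29 and OASL by 3.24 ± 0.34, while IFI35 fell by 2.54 on the log2 scale. Of 23 chemokines and NF-kB targets 5 rose and 4 fell, the latter with the cytokine LIF (-3.77 ± 0.51), NFKB1 (-3.19 ± 0.35) and its inhibitor NFKBIA (-2.62 ± 0.14).

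Developmental signalling families changed unevenly among their ligands, receptors and effectors. Of 21 Notch pathway genes 8 (38.1%) rose and 1 fell, with the target gene HEY1 at 2.81 ± 0.30 (SD, n = 6) and HES2 at 2.07 ± 0.18, and the receptor NOTCH4 at -1.27 ± 0.42 with 4 of 6 DoxyNaB arrays measured, which was -0.092 and not called after normexp. Among the 17 measured on all 12 arrays 6 rose and 0 fell. Of 39 BMP and TGF-beta genes 11 (28.2%) rose and 6 fell. The ligands BMP8A (2.68 ± 0.39) and BMP6 (2.21 ± 0.16) rose, and the signal transducers SMAD1 (-1.94 ± 0.31) and SMAD3 (-1.71 ± 0.29) fell. Of 28 Wnt ligands and receptors 8 rose and 7 fell, with WNT10B at -2.29 ± 0.31, and of 26 Wnt feedback and target genes 9 rose and 8 fell. Of 24 genes of the beta-catenin complex and TCF factors 3 rose and 1 fell, with APC2, a paralog of the tumor suppressor APC, at 3.68 ± 0.11 and the TLE family member TLE5 at -2.60 ± 0.29. TCF7L2, itself a TCF factor, rose as given above. Whether its probes lie in the transgene was not tested, so the 3 rises may include the transgene. Of 17 CCN, angiopoietin-like and YAP target genes 6 rose and 6 fell. ANGPTL4, an inhibitor of lipoprotein lipase, rose by 3.36 ± 0.19 beside CCN2, while YAP1, the coactivator itself, changed by -2.56 ± 0.28. Of 22 VEGF, PDGF and FGF family genes 6 fell and 4 rose, with FGF19, an enterokine, at -2.76 ± 0.21. The clock genes split as well, with BMAL1 at 1.82 ± 0.20 and NR1D2, a repressor of BMAL1, at -2.06 ± 0.49.

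Many genes usually restricted to other tissues rose. Of 83 neuronal and neurosecretory genes on the array 44 were tested, and of these 23 (52.3%) rose and 1 fell. Of 137 voltage-gated ion channel genes on the array 48 were tested, of which 21 (43.8%) rose and 3 fell, and of 87 germline and cancer-testis genes 28 were tested, of which 14 (50%) rose and 0 fell. A gene that passed the filter on low signal only through the butyrate arrays had to be higher there, so these counts are no measure of the whole families. Among the members well above background on all 12 arrays, 14 of 33 neuronal genes rose, 7 of 24 ion channel genes and 5 of 17 germline genes, against 15.3% of the 12984 genes measured so. That share is over all levels. It was 32.2% among the 2467 genes with the lowest levels on the Ctl arrays, as given below, and members were not matched for level. SYT11, a synaptotagmin, was well above background on 1 of 6 Doxy and 6 of 6 DoxyNaB arrays and changed by 5.45 ± 0.98. RFPL4A, an oocyte gene, changed by 6.99 ± 0.43, and the cancer-testis genes PAGE4 and TEX14 by 4.12 ± 1.04 and 2.82 ± 0.49. The sodium channel subunit SCN3B rose by 3.45 ± 0.58 and the potassium channel KCNC1 by 3.74 ± 0.81, while the calcium-activated channel KCNN4 fell by 3.60 on the log2 scale. Of 15 muscle genes 8 rose and 2 fell, with creatine kinase CKM at 2.82 ± 0.57 (3 of 6 Doxy arrays measured, 1.19 after normexp), and among the 10 measured on all 12 arrays 5 rose and 1 fell. After normexp correction the germline genes called higher numbered 9, and the ion channel genes 13. The rises of the ion channel group were largest in experiment 2, with a median of 1.58 against 0.35 to 0.79 in the others, and experiment 2 holds the DoxyNaB array with the bright negative controls. Its part in the result was not tested.

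HOX genes encode position along the body axis, and most of those tested fell. Of 27 tested, 16 (59.3%) fell and 1 rose, with HOXB9 at -2.43 ± 0.23 (adjusted p = 3.05e-12, limma), HOXC6 at -2.37 ± 0.53 and HOXB6 at -2.23 ± 0.30, and HOXB2 up by 1.63 ± 0.23. The dimmer HOXB2 probe was not called (-1.13 ± 1.95). The falls were 6 of 10 HOXA, 7 of 9 HOXB, 3 of 6 HOXC and 0 of 2 HOXD genes. The median was -0.04 in experiment 2 and between -1.49 and -0.64 in the others, and after normexp correction 5 genes fell. Among the 14 measured on all 12 arrays 8 fell and 1 rose. Among oncofetal genes the transcription factor PLAG1 (4.09 ± 0.34) rose beside PEG10, and the RNA-binding protein IGF2BP3 (-2.55 ± 0.21) fell beside HMGA2.

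Genes of the cell surface and matrix changed in both directions. Of 14 Eph receptors and ephrins 7 (50%) rose and 1 fell, with the crypt-positioning receptors EPHB3 at 3.38 ± 0.29 and EPHB2 at 2.10 ± 0.23. Of 23 semaphorins, plexins and neuropilins 11 (47.8%) rose and 4 fell. Of 22 plasminogen activators and matrix proteases 10 (45.5%) rose and 1 fell, with the collagenase MMP1 at 6.39 ± 1.08 (3 of 6 Doxy arrays measured, 4.17 after normexp), the inhibitor TIMP3 at 4.18 ± 0.32 and the urokinase PLAU at -2.43 ± 0.29. Of 11 S100 calcium-binding protein genes 5 (45.5%) fell and 0 rose, with S100A16 at -2.31 ± 0.26. Of 46 colonocyte differentiation genes on the array 13 were tested, of which 2 rose and 2 fell. Among 20 intestinal stem cell markers 5 rose and 6 fell, CD44 by -2.86 ± 0.19 and the Wnt receptor ligase RNF43 by -3.04 ± 0.39. Of 16 epithelial-mesenchymal regulators and mesenchymal markers 7 (43.8%) rose and 4 fell, with the transcription factor SNAI3 at 2.66 ± 0.31 and ESRP1, an epithelial splicing regulator, at -1.67 ± 0.30. Of 49 integrins, laminins and collagens 17 (34.7%) rose and 6 fell, the latter with ITGB4 (-2.22 ± 0.23), the integrin of hemidesmosomes. Among members measured on all 12 arrays 10 of 39 integrins, laminins and collagens rose and 5 fell. Of 12 epithelial-mesenchymal genes measured so 4 rose and 3 fell, and of 18 semaphorins and their receptors 8 rose and 2 fell. Of 12 Eph receptors and ephrins 7 rose and 0 fell, and of 16 plasminogen activators and proteases 7 rose and 1 fell. Over all 12984 genes measured so 15.3% rose and 12.3% fell, without matching for level, with which the shares varied as given below. Of 18 tubulins 7 (38.9%) rose and 4 fell, with the neuronal TUBB3 up by 2.13 ± 0.31 and the common TUBB at -1.41 ± 0.20. GSN, the actin-severing protein gelsolin, named here after its values were seen, rose by 1.69 ± 0.12.

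Transporters showed no common direction, with 38 of 235 solute carrier genes up (16.2%) and 36 down (15.3%). The glutamine transporter SLC38A5 fell (-3.64 ± 0.57), as did the glycine transporter SLC6A9 (-3.83 ± 0.70), which was measured on 3 of 6 DoxyNaB arrays and stood at -1.52 after normexp. The dimmer SLC6A9 probe was not called (-1.17 ± 1.88). Of 31 ABC transporters 11 (35.5%) rose, with the multidrug pump ABCB1 at 2.78 ± 0.54, and 7 fell. Of 382 C2H2 zinc finger genes 84 (22.0%) rose and 22 fell, a balance that turned to 19 up and 70 down with scaling to the median. Those with a probe on chromosome 19 rose in 48 of 155 cases (31.0%) and fell in 1, and those elsewhere rose in 36 of 227 (15.9%) and fell in 21. With scaling to the median the counts were 13 up and 18 down on chromosome 19 and 6 up and 52 down elsewhere. Of the other 926 genes with a probe on chromosome 19, 22.1% rose. Over all chromosomes the share that rose ran from 14% on chromosome 13 to 23.4% on chromosome 19, and the share that fell from 9.34% on the X chromosome to 16.2% on chromosome 12.

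The direction of a change went with the level of the gene in cells without any treatment, given here for the 12335 genes well above background on all 24 arrays. A gene that passed the filter only through the butyrate arrays had to be higher there, and such genes are left out, as are genes that fell below background. Of the 2467 genes with the lowest levels on the Ctl arrays 32.2% rose and 0.973% fell, and of the same number with the highest levels 2.63% rose and 18.9% fell. The groups in between had 18%, 11.6% and 6.65% up and 9.77%, 13.7% and 19.9% down. Probes that were never well above background were also higher on the DoxyNaB arrays in 5 of 6 experiments, as given above, and the part of background in the pattern was not tested.

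**Figure D3:**
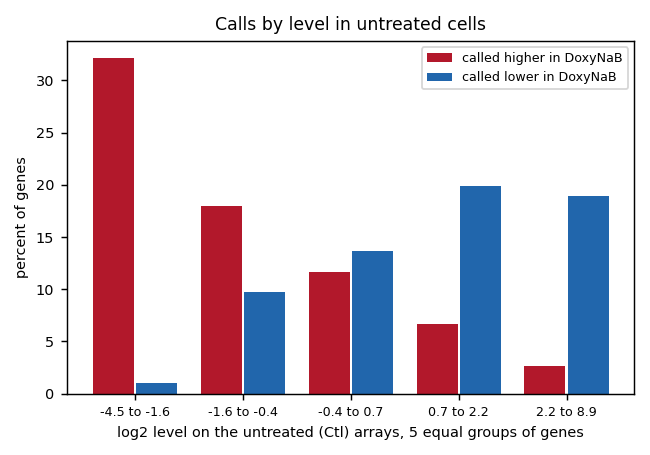
Percent of genes (vertical axis) called higher (red) and lower (blue) in DoxyNaB against Doxy, in 5 equal groups of the 12335 genes well above background on all 24 arrays, by their log2 level on the Ctl arrays (horizontal axis, relative to the 75th percentile). The share called higher drops from 32.2% to 2.63%, and the share called lower is 0.973% in the lowest group and 18.9% in the highest.

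The response with doxycycline was close to that without it for most genes. Of the genes that rose in DoxyNaB/Doxy 92.7% were also called higher in NaB/Ctl, which is 82.6% of the genes called higher there, and of those that fell 82.3% were also called lower, which is 89.6%. 0 genes were called in opposite directions. Across the 15158 genes, which are not independent replicates and share array design and base composition, the changes correlated with r = 0.969 (Spearman rho = 0.965). The change itself differed for 236 probes (1.24%, adjusted p under 0.01 for the interaction in limma with no fold threshold), 195 of them lower with doxycycline. The count rested on the scaling and on the number of experiments, with 43 probes after normexp (37 lower), 9 with scaling to the median (1 lower), 118 to 196 when 1 experiment was left out, 5 in experiments 2 to 4 alone and 0 in experiments 5 and 6 alone (limma, 2282 at an unadjusted p under 0.05).

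MYC, ZFP36L1, AXIN2 and SP5 had the lowest adjusted p among genes whose response was lower with doxycycline and that were called in either contrast. The log2 level of MYC, the growth regulator and Wnt target, was between 4.20 and 4.78 on the Doxy arrays (median 4.61) and between 1.76 and 2.49 on the DoxyNaB arrays (median 2.06). The groups do not overlap, and the change of -2.45 ± 0.15 stood against -0.85 without doxycycline, an interaction of -1.60 (adjusted p = 2.14e-08, limma). ZFP36L1, an mRNA decay factor, changed by -2.39 ± 0.12 against -0.87. AXIN2, the feedback inhibitor of Wnt signaling, was between -1.05 and 0.01 on the Doxy arrays (median -0.87) and between -1.75 and -1.04 on the DoxyNaB arrays (median -1.56), so that the groups touch. Its change of -0.76 ± 0.15 did not reach 2-fold and stood against 1.19 without doxycycline, an interaction of -1.95 (adjusted p = 8.26e-08, limma). The proteasome assembly factor PAAF1 had an interaction of -1.15. Of 26 Wnt feedback and target genes 10 passed the interaction test, and of 28 ATF4 targets 9 did.

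Genes whose response was higher with doxycycline were fewer. The long non-coding RNA UCA1 changed by -0.47 ± 0.19 against -2.50 without doxycycline, an interaction of 2.03 (adjusted p = 2.41e-08, limma). CDC25B rose by 1.07 ± 0.34 against -0.80, RNASE1 rose by 2.27 ± 0.14 against 0.86, CYSRT1 by 5.06 ± 0.37 against 3.64 and TM4SF19 by 2.57 ± 0.43 against 0.19. Of the 29 genes named here whose response differed, 28 kept their sign under the 6 scalings, and EGFR went from -0.94 to 0.16 after normexp. Of the same 29 genes 13 passed after normexp, 21 after quantile normalization and 4 with scaling to the median, which were CDC25B, TCF7L2, TM4SF19 and UCA1. HMGCS1 had an interaction of 1.36.

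**Figure D4:**
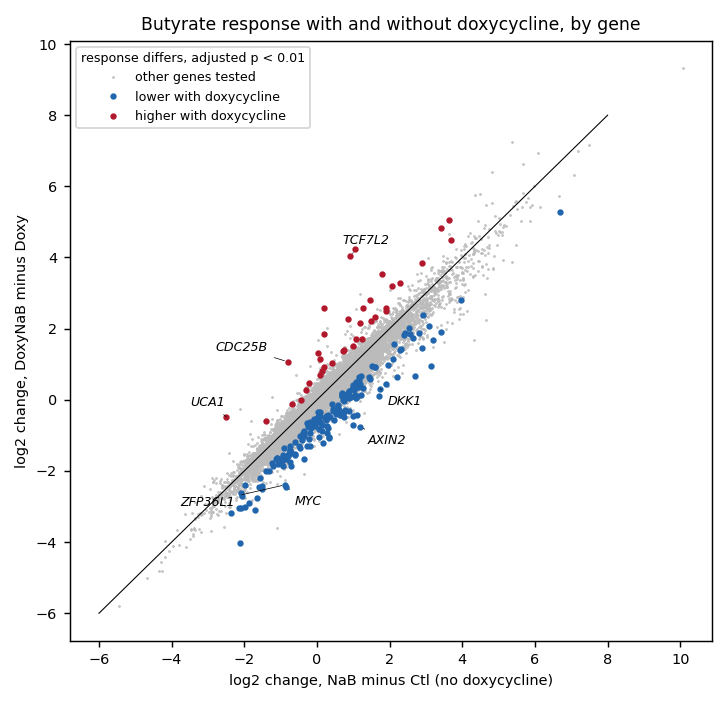
Log2 change of each of 15158 genes with doxycycline (vertical axis, DoxyNaB minus Doxy) against that without it (horizontal axis, NaB minus Ctl), with the line of equal change. Genes whose responses differ at an adjusted p under 0.01 are blue where lower and red where higher with doxycycline; MYC and AXIN2 lie below the line, and TCF7L2, CDC25B and UCA1 above it.

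Between Doxy and DoxyNaB arrays, the Wnt/Tcf target genes that the study followed did not move as a block. For these genes the study reported lower expression with doxycycline plus butyrate than with butyrate alone. The reference there was NaB and here it is Doxy, so the mixed directions that follow do not contradict that result. To select genes across the genome, the study also compared doxycycline plus butyrate with doxycycline alone. BMP4 (-2.50 ± 0.09), KITLG (-2.91 ± 0.20), CCND1 and MYC fell, SOX2 (3.51 ± 0.36) and VIM (1.04 ± 0.24) rose, SOX2 with 2 of 6 Doxy arrays measured and 1.70 after normexp and VIM with the call lost under 8 alternatives, and AXIN2, SOX9 (-0.73 ± 0.29), SOX4 (-0.59 ± 0.23), SP5 (0.64 ± 0.20) and DKK1 (0.31 ± 0.29) stayed under 2-fold. The sign of SP5 turned after quantile normalization (-0.04) and that of DKK1 with scaling to the median (-0.25). Of these 11 genes AXIN2, SP5, MYC, BMP4, KITLG, DKK1, CCND1 and SOX9 passed the interaction test, each with the lower response under doxycycline. The study picked these genes as known Wnt/Tcf targets and showed them from these samples, so they are no independent evidence of a direction.

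**Figure D5:**
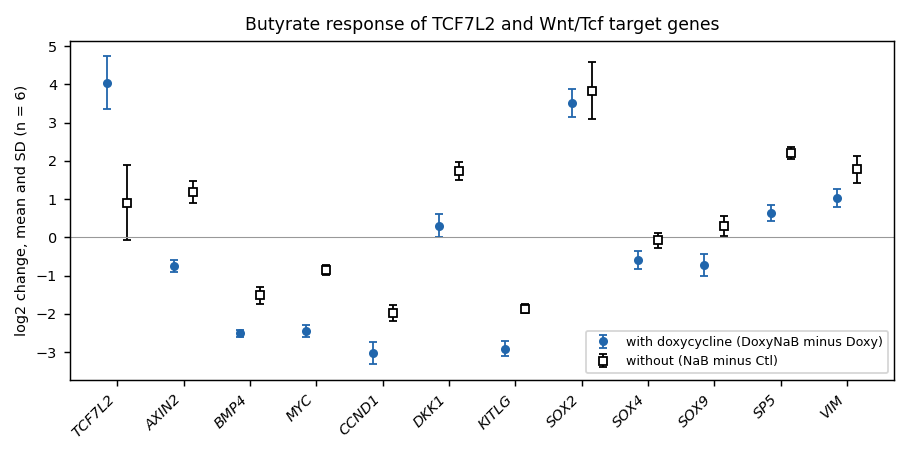
Log2 change (vertical axis, mean and SD of 6 experiments) of TCF7L2 and 11 Wnt/Tcf target genes on butyrate, with doxycycline (blue circles) and without (open squares). TCF7L2 is higher with doxycycline, 4.04 against 0.91, and each of the other genes is lower with it.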

How the data were processed

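RNA of the 24 samples was extracted by Genus Biosystems, which hybridised fragmented cRNA made from it to 1-colour Agilent whole human genome arrays. Per the file headers the deposited intensity values come from Feature Extraction 9.5.3.1, which subtracts background (gProcessedSignal, probe positions on NCBI36). Groups were taken from the sample titles. Control spots and spots marked as outliers were left out, the log2 intensity minus the 75th percentile of each array was averaged over the spots of a probe, and 34127 probes remained. Probes were tested if every array of 1 treatment or more (6 of 6) read them as well above background. limma 3.58.1 (R 4.3.3) was fitted to 4 treatments with experiment as a block, and calls needed over 2-fold and an adjusted p under 0.01. The experiment numbers that pair the samples were taken from the titles. Deviations of DoxyNaB and Doxy arrays of the same experiment correlated with r between 0.258 and 0.686. Of 6 DoxyNaB arrays 5 correlated best with the Doxy array of their own number. That of experiment 2 correlated better with the Doxy array of experiment 4 (0.516) than with its own (0.358). Experiments 2 to 6 were each on 1 slide, so there these correlations cannot tell experiment from slide. The 6 experiments are biological replicates of 1 clone. On data simulated with independent noise, 189 of 200 probes given a change of over 2-fold and 0 unchanged probes were called. The simulation held no shift of background or scaling between treatments, so it cannot show how such shifts affect the calls. A gene is its probe of highest mean level. Scalings, filters, block, test, thresholds and left-out experiments were varied.

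The gene lists, the members and the tests were chosen with earlier results of these data known. Genes were named by a rule: the 12 largest changes each way among genes measured on all 12 arrays, the 5 largest bounds each way, up to 3 called members each way per list, the 5 smallest interaction p-values each way, TCF7L2 and the study's Wnt/Tcf list. Of these the text gives those with a known role, and unnamed transcripts were passed over. Some items are not reported here. Genes printed for a promoter and those said to be named after their values were seen fall outside it.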

Additional observations from a re-analysis of the deposited data

Results flagged for a closer look

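Among 264 values tested for an experiment far from the others, 24 had 1 (Dixon's test at the 95% level), where chance gives about 1 in 20. The negative controls of the DoxyNaB array of experiment 2 stood at a net signal of 249, against 51.2 to 111 on the other DoxyNaB arrays. In the same experiment the log2 changes of ACADSB (1.57), CASP9 (1.29), CDKN2D (1.26), HDAC10 (2.83), HOXB2 (2.07), MCM3 (-2.38), SOX4 (-1.03) and WDR12 (-2.18) stood apart. So did the medians of the aminoacyl-tRNA synthetases (-0.77), splicing factors (-1.11), proteasome (-0.66), glycolysis (-0.065), cytosolic heat shock proteins (-0.73), actin-binding genes (-0.12) and voltage-gated ion channels (1.58). NOTCH4 changed by -0.46 in experiment 2. TYMS changed by -0.12 in experiment 4, against -3.82 to -3.09 in the other experiments. In experiment 6 the distant values were those of CCN2 (4.50), KCNC1 (5.30), NTSR1 (-2.69) and the median of the claudins and tight junction genes (0.36), and in experiment 1 those of SCN3B (2.32) and the median of the S100 proteins (-1.46).

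The butyrate response differed with doxycycline, by the interaction term in limma, for 29 of the genes named above. It was higher with doxycycline for TCF7L2 (3.13), TM4SF19 (2.38), UCA1 (2.03), CDC25B (1.87), CYSRT1 (1.42), RNASE1 (1.42), SBSN (1.40) and HMGCS1 (1.36). It was lower for AXIN2 (-1.95), SLC7A11 (-1.89), MYC (-1.60), SP5 (-1.56), ZFP36L1 (-1.52), DKK1 (-1.43), CCN2 (-1.40), PAAF1 (-1.15), HEY1 (-1.15), FGF19 (-1.10), KITLG (-1.05), CCND1 (-1.04), SOX9 (-1.01), HES2 (-1.01), BMP4 (-0.99), RNF43 (-0.96), EGFR (-0.94), HOXB9 (-0.91), JDP2 (-0.89), TRIB3 (-0.88) and NFKBIA (-0.52).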

How the results depend on the processing

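The percent of called probes that were higher was 46.65 after quantile normalization, 25.01 with scaling to the median, 67.61 with the 75th percentile over probes well above background on all arrays, 53.92 with that percentile over averaged probes (chosen after seeing the data), 65.96 without the filter and 53.05 with the filter on all 24 arrays. The number of probes called was 3628 after normexp, 9593 at 1.5-fold, 2689 at 3-fold, and 5694 to 5836 when 1 experiment was left out, when 58.45 to 60.41% were higher. Probes whose response differed with doxycycline numbered 43 after normexp, 9 with scaling to the median, 144 without the filter, 421 at an adjusted p under 0.05, 118 to 196 without 1 experiment, 280 without the DoxyNaB array of experiment 2, 5 in experiments 2 to 4 and 0 in experiments 5 and 6. Without the replicate block, that is without the pairing by experiment, they numbered 85, and 5333 probes were called. The cause of these shifts was not tested, except that the thresholds and the left-out experiments change the counts by construction.

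Of 9070 values of 353 genes under the alternatives, 8762 kept their sign and their side of the threshold, 289 lost the call, 11 gained it, 5 turned with a call in either setting and 3 turned with none, among them SP5 and DKK1 as given above. After normexp FOXA2 stood at 0.046, KRT34 at 0.12, CLDN2 at 0.13 and CAV3 at 0.089, and the mean over both probes of H4C4 was 0.75. Of 68 lists 16 had relative medians of both signs over the 6 scalings, with reported values between -0.39 and 0.50. By over 0.25, and from a reported value beyond 0.3, 3 of 1768 list medians turned: the EGF receptor family after normexp (0.067) and the mucins after quantile normalization (-0.086) and in experiments 5 and 6 (-0.21). What could be measured of dim probes is limited by the lowest level called well above background, which was highest, at -3.23, on the DoxyNaB array of experiment 2.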
